A study of Mus musculus with 8 samples.

Results

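Cardiac fibroblasts that had spent 21 days in differentiation medium were compared with fibroblasts that had spent 7 days in it, gene by gene across the whole expression table. The comparison used 4 of the 8 libraries of the series, 2 from day 7 and 2 from day 21, and was chosen by time label alone. All 4 came from wild-type C57BL/6J mice aged 8 weeks, were prepared from total RNA and carried the same medium treatment, so the labels of the groups differ only in the number of days. A difference in handling or processing between the days that the labels do not record cannot be told apart from time. The other 4 libraries, from day 0 before the medium and from day 14, entered the estimate of spread and are given for their levels only. The medium was meant to induce osteogenic differentiation; what it contained is not given in the sources used here. No library came from cells kept equally long without the medium, so time in the medium and time in culture cannot be told apart. Nothing in the labels says whether the 2 libraries of a day came from separate cultures or animals, so p-values here capture just the scatter between libraries, which may be technical.

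Cardiac fibroblasts build and maintain the collagen scaffold of the heart, and after injury they can become contractile myofibroblasts or, less often, lay down mineral. Bone formation by mesenchymal cells runs through the transcription factors Runx2 and Sp7, alkaline phosphatase, and a collagen matrix that later binds calcium phosphate. Pyrophosphate and matrix Gla protein hold mineral back, while alkaline phosphatase removes pyrophosphate and releases phosphate. Mesenchymal cells also make the cytokine RANKL, which drives macrophage precursors to become bone-resorbing osteoclasts.

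The day 7 libraries held 19399248 and 20225968 reads within genes, and those of day 21 held 17507952 and 19522382. Expression is given as normalized counts, which are reads divided by 1 size factor per library, without correction for transcript length. Log2 fold changes are day 21 minus day 7 on log2(normalized count + 1) ± the standard error of the limma fit. This scale understates the change of genes with few reads. Adjusted p-values are Benjamini-Hochberg values over all tested genes. Replicates correlated at 0.994 at day 7 and 0.990 at day 21 (Pearson, across genes within a pair), and the median absolute difference between them was 0.0995 and 0.175 on the log2 scale, so day 21 was the noisier time. Shorter transcripts tended to be higher at day 21, with a slope of -0.129 in log2 change per doubling of transcript length over 13420 genes. Of 9 fibroblast markers, all tested, 3 were higher (Dcn, Lum and Thy1) and 0 lower, with 1, 2, 1 and 2 higher and 0, 0, 0 and 1 lower when day 7 replicate 1, day 7 replicate 2, day 21 replicate 1 and day 21 replicate 2 were left out in turn. Col1a1, Col1a2 and Vim lay lower in both day 21 libraries without being called. The cardiac fibroblast markers Pdgfra and Tcf21 were present at both times: 9352 and 9659 normalized counts of Pdgfra and 7188 and 6951 of Tcf21 at day 7 became 9709 and 10112 and 7865 and 8826 at day 21, and neither was called. Cardiomyocyte myosin Myh6 had 0 reads at both times, and so had the T cell gene Cd3e. The cardiomyocyte list was carried by troponin T (Tnnt2), at 11739 and 11078 and then 10580.3 and 5849, not called.

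Of 13527 tested genes, 1182 (8.74%) passed an adjusted p of 0.05 between days 7 and 21. There were 738 higher at day 21 (5.46% of those tested) and 444 lower (3.28%), and the median change over all tested genes was 0.01. A change of at least 2-fold was seen in 211 of the higher genes (1.56% of those tested) and 72 of the lower genes (0.532%). In each of the 1182 both libraries of one day lay above both of the other, but so they did for 31.2% of all tested genes in the upward and 27.6% in the downward direction. With 2 libraries against 2, an exact two-sided permutation test of a single gene cannot go below p = 0.333, so calls rest on the spread pooled across genes and times. Without day 7 replicate 1 only 262 genes were called, without day 7 replicate 2 299, and without day 21 replicate 1 521, against 1443 without day 21 replicate 2. A group then holds 1 library, which is assumed to vary like the others. Counts of list members with each library left out in turn are therefore given below for most lists, in the order day 7 replicate 1, day 7 replicate 2, day 21 replicate 1, day 21 replicate 2. The counts of every list are to be read beside the shares over all tested genes, 5.46% higher and 3.28% lower. Genes described first in a group are, where there are any, among those called in all 16 alternative analyses, which 72 of the 170 called genes followed one by one were.

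**Figure D1:**
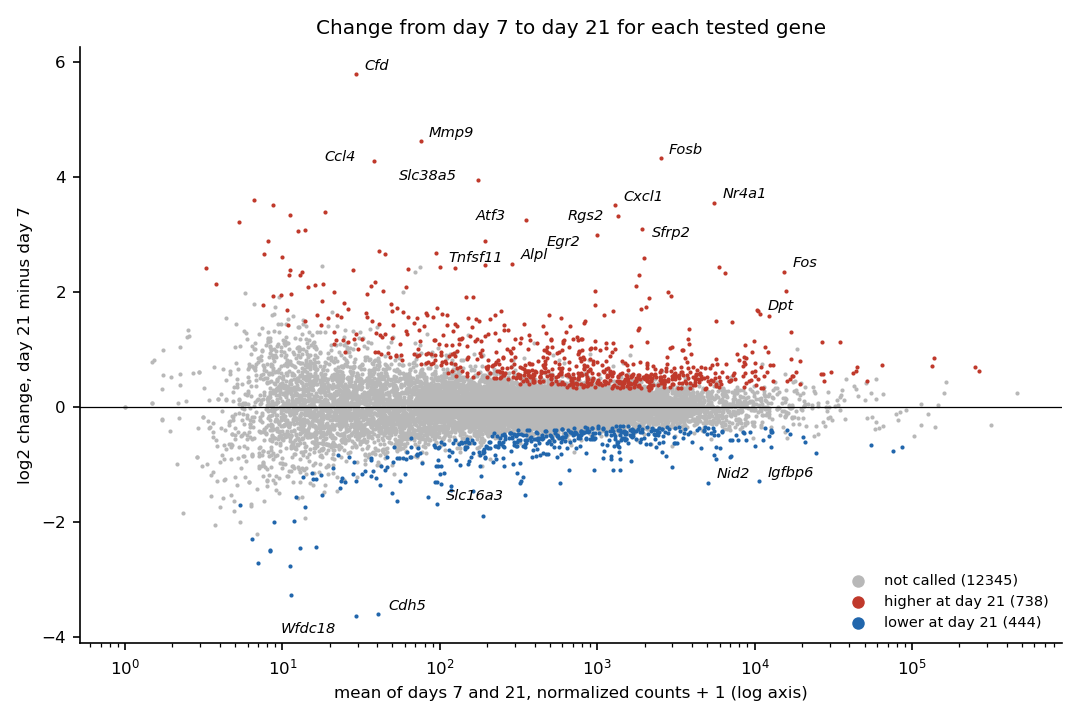
Log2 change between days 7 and 21 (vertical axis) against mean level in normalized counts + 1 (horizontal log axis) for the 13527 tested genes. The 738 genes called higher are red, the 444 called lower blue, and the largest changes, from Cfd, Mmp9 and Fosb down to Wfdc18 and Cdh5, are labelled.

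Immediate early genes, which cells switch on within minutes of a stimulus without new protein synthesis, had the largest share of members called higher at day 21 among the 41 gene lists. Of 26 tested members, 21 were higher and 0 lower (80.8%, against 5.46% of all tested genes), with a median log2 change of 1.63 against 0.01 over all genes. Fosb, a partner in the AP-1 transcription factor, stood at 218 and 251 normalized counts at day 7 and 3974 and 5654 at day 21 (log2 fold change 4.34 ± 0.26, adjusted p = 2.07e-06). The orphan nuclear receptor gene Nr4a1 went from 766 and 916 to 7608 and 12793 (log2 fold change 3.56 ± 0.21, adjusted p = 2.07e-06). In both genes the lower day 21 library lay several times above the higher day 7 library.

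Atf3, a stress-induced repressor, had 67.4 and 62.4 normalized counts at day 7 and 524 and 752 at day 21 (log2 fold change 3.26 ± 0.20, adjusted p = 2.07e-06). The zinc finger factor gene Egr2 rose from 193 and 251 to 1572 and 1946 (log2 fold change 2.99 ± 0.19, adjusted p = 3.38e-06). Nr4a2, the closest relative of Nr4a1, rose from 42.8 and 44.6 to 254 and 426 (log2 fold change 2.89 ± 0.24, adjusted p = 2.52e-05). These factors are scarce in resting cells, and here they were called in every alternative. Fos, Jun and Egr1, the best-known early genes, were named after their values were seen. Fos had 4468 and 5549 normalized counts at day 7 and 22002 and 29518 at day 21 (log2 fold change 2.36 ± 0.16, adjusted p = 5.48e-06). Jun, its usual partner, had 497 and 591 at day 7 and 2333 and 4559 at day 21 (log2 fold change 2.59 ± 0.23, adjusted p = 4.69e-05). Egr1, the relative of Egr2, had 5889 and 6348 at day 7 and 19403 and 31652 at day 21 (log2 fold change 2.02 ± 0.17, adjusted p = 3.56e-05). In Fosb, Nr4a1, Atf3, Egr2, Nr4a2, Fos, Jun and Egr1 day 21 replicate 2 was the higher of its pair.

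The day 14 levels of these genes lay far below those of day 21. Fosb was at 186 and 328 at day 14, Fos at 3888 and 5252 and Egr2 at 215 and 325, close to their day 7 levels. At day 0, Fosb was at 30.3 and 45.8 and Egr2 at 56.5 and 53.6, below day 7, whereas Jun, at 905 and 858, was above its day 7 level. Members that were not called include Maff, at 1806 and 1774 and then 2379 and 1959 (log2 0.27 ± 0.10), and Klf6, at 4586 and 4217 and then 3949.7 and 3686 (log2 -0.20 ± 0.10). With 1 library left out in turn, 17, 20, 21 and 20 members were higher.

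Early genes are known for sites of serum response factor and of the cAMP-responsive factor CREB beside their start sites, and their promoter sequences are shown for those letters. RefSeq promoter windows (GRCm38.p6, 250 bases before to 50 after the start site) were matched for 17 of the 21 higher members and for 10049 of the 13527 tested genes. The CArG box, the site of serum response factor, was found on either strand in 2 of the 17 (11.8%; Egr2 and Zfp36) and in 1.61% of all matched genes. The cAMP response element, TGACGTCA, was found in 2 of the 17 (11.8%, Btg2 and Dusp1) and in 3.5% of all matched genes. Among all tested early genes, called or not, each of these 2 elements was in 3 of the 21 with a matched promoter (14.3%). The AP-1 site, TGANTCA, was found in 0 of the 17 and in 6.44% of all matched genes, and the TATA box, TATAAA, in 3 of the 17 (17.6%) and in 9.01%. The CCAAT box, CCAAT, was in 41.2% and 42.8%, the E-box, CACGTG, in 17.6% and 11.4%. The glucocorticoid response element and the interferon-stimulated response element were each in 1 of the 17, and in 0.408% and 3.64% of all matched genes. Both strands were read, a gene with several start sites had more windows in which a match could fall, and no test was made. The stretches shown hold a CArG box or a cAMP response element, in capitals, and lie outside every exon of the GENCODE M21 annotation. Each runs from base -250 to base -51 before a RefSeq start site. Other Egr2 start sites had windows with a different CArG box, which are not shown. The Egr2 stretch shown (chr10:67537316-67537515, plus strand) lies between exons within the annotated span of the Egr2 gene and has its CArG box at -72 to -63. The Dusp1 stretch (chr17:26508523-26508722, minus strand) lies likewise within the span of Dusp1, with its response element at -143 to -136. The Btg2 stretch (chr1:134079206-134079405, minus strand) lies outside any annotated gene, with its response element at -166 to -159.
Egr2: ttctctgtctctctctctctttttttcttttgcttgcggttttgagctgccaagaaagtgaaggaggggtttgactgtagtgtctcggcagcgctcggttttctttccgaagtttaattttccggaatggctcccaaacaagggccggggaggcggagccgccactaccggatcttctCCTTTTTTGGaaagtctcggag
Dusp1: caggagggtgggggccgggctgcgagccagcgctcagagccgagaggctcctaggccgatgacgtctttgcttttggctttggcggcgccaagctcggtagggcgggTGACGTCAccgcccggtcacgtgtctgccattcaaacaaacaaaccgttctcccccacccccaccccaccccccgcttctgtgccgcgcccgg
Btg2: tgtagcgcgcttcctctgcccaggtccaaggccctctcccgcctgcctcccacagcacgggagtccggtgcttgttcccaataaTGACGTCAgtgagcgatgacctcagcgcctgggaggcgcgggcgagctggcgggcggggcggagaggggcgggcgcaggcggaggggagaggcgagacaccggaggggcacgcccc
A match is a run of letters, not a measured binding site. Dusp1, the phosphatase that switches off MAP kinases, rose from 4634 and 5313 to 13899.9 and 18135 (log2 fold change 1.68 ± 0.13, adjusted p = 1.41e-05). Btg2, an antiproliferative gene, rose from 1729.8 and 1944 to 8736 and 11265 (log2 fold change 2.43 ± 0.14, adjusted p = 2.07e-06). Zfp36, which destabilises cytokine messages, rose from 4482 and 5307 to 14368 and 17351 (log2 fold change 1.69 ± 0.12, adjusted p = 8.01e-06). Btg2 and Zfp36 were named after their values were seen.

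**Figure D2:**
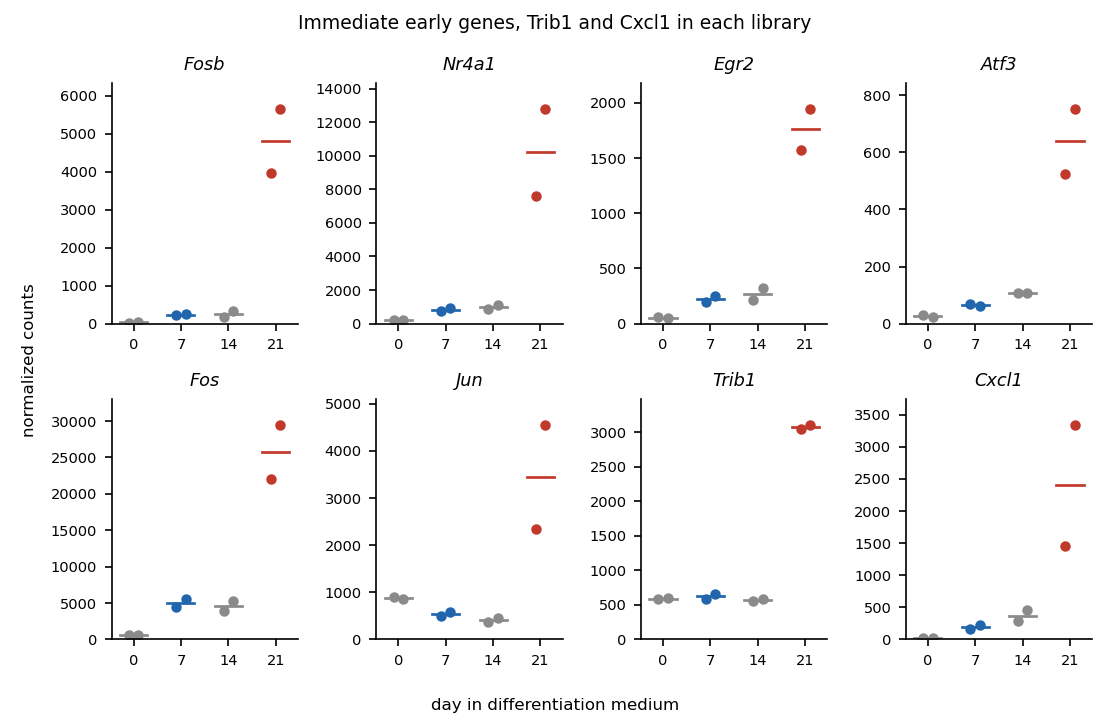
Normalized counts (vertical axes, each from 0) of 6 immediate early genes, Trib1 and Cxcl1 in each of the 8 libraries by day in the medium (horizontal axis), with day 7 blue, day 21 red and the other days grey; bars mark the mean of 2 libraries. Both day 21 libraries lie above all 6 others in every panel.

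Other large rises also came after day 14. Trib1, a pseudokinase that directs C/EBP proteins to degradation, went from 589 and 659.7 to 3046 and 3111 (log2 fold change 2.30 ± 0.10, adjusted p = 2.04e-07), with 561 and 589 at day 14. Rgs2, a brake on G protein signalling, went from 218 and 266 to 1980.2 and 2961 (log2 fold change 3.33 ± 0.24, adjusted p = 8.01e-06), with 317 and 397 at day 14. Hes1, a repressor best known as a Notch target, went from 1086 and 1152 to 4097 and 4947 (log2 fold change 2.01 ± 0.14, adjusted p = 5.48e-06), with 1112 and 1473 at day 14. In all of Trib1, Rgs2 and Hes1 both day 14 libraries lay below both day 21 libraries.

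Chemokine and cytokine genes rose in 10 of 22 tested members and fell in 0, with a median log2 change of 0.67. Cxcl1, which attracts neutrophils, stood at 161 and 229 at day 7 and 1448 and 3348 at day 21 (log2 fold change 3.51 ± 0.32, adjusted p = 5.16e-05). Interleukin 6 (Il6) went from 107 and 111 to 286 and 384 (log2 fold change 1.60 ± 0.17, adjusted p = 0.000172). Its relative Lif went from 108 and 127 to 285 and 284 (log2 fold change 1.27 ± 0.14, adjusted p = 0.00024). In Cxcl1, Il6 and Lif both day 21 libraries lay well above both day 7 libraries, and the calls held in every alternative. The stromal chemokine Cxcl12, named after its values were seen, rose from 9438 and 10306 to 15339.7 and 17300.0 (log2 fold change 0.72 ± 0.11, adjusted p = 0.00218; without day 7 replicate 1 log2 0.66, adjusted p = 0.0546). The macrophage growth factor Csf1 was abundant and not called, at 19879 and 20804 and then 18674 and 22762. Ccl4, a macrophage chemokine outside the list, rose from 1.82 and 2.67 to 34.2 and 111 (log2 fold change 4.28 ± 0.71, adjusted p = 0.00327). With each library left out in turn 5, 7, 7 and 9 members were higher.

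Among osteoblast transcription factors 2 of 10 tested members were higher (20%, against 5.46% of all tested genes) and 1 lower (10%, against 3.28%). Runx2 stood at 210.4 and 265 at day 7 and 197 and 259 at day 21 (log2 fold change -0.07 ± 0.20, adjusted p = 0.87), and the libraries of the 2 days overlapped. Sp7, the factor that follows Runx2, and bone sialoprotein, Ibsp, were listed at 0 in all 8 libraries, which allows up to 3 reads in each; the table also lists 0 throughout for Hmgcs1, an enzyme that most cells need. Osteocalcin, Bglap, had 5 reads over both day 7 libraries and 10 over both day 21 libraries, too few to test. Atf4, which supports osteoblast amino acid supply, rose from 3748 and 3837 to 5003 and 5669.7 (log2 fold change 0.49 ± 0.11, adjusted p = 0.0148). Zfp521, an antagonist of Runx2, fell from 1251 and 1214 to 865 and 1020.3 (log2 fold change -0.39 ± 0.11, adjusted p = 0.048). Neither call held without day 7 replicate 1, where Atf4 was at log2 0.47, adjusted p = 0.15 and Zfp521 at log2 -0.37, adjusted p = 0.279. Leaving out each library gave 0, 0, 2 and 0 higher members and 0, 0, 0 and 1 lower.

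Among regulators of phosphate and mineral 5 of 19 tested members rose and 2 fell, with a median of 0.27. Alkaline phosphatase, Alpl, stood at 68.3 and 99.8 normalized counts at day 7 and 630.2 and 351 at day 21 (log2 fold change 2.50 ± 0.28, adjusted p = 0.000238), and at 214 and 198 at day 14. Day 21 replicate 1 was the higher of its pair, and even the lower library lay above every library of the earlier days. Tnfsf11, which encodes RANKL, stood at 26.4 and 34.8, then 176 and 162 (log2 fold change 2.44 ± 0.27, adjusted p = 0.000212), with 130.3 and 79.5 at day 14. Fetuin-A, Ahsg, a protein that binds calcium phosphate in blood, rose from 364 and 393 to 817 and 884 (log2 fold change 1.17 ± 0.19, adjusted p = 0.00248). Alpl, Tnfsf11 and Ahsg were called in every alternative. The members that fell, named after their values were seen, were the adenosine transporter gene Slc29a1 (log2 fold change -0.57 ± 0.10) and the phosphate transporter gene Slc20a2 (log2 fold change -0.44 ± 0.10), while the related transporter gene Slc20a1 rose (log2 fold change 0.61 ± 0.11). Higher members numbered 3, 4, 4 and 5 with each library left out, and lower members 1, 0, 1 and 1.

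The inhibitors of mineral Mgp, Ank and Enpp1 did not pass the test. Matrix Gla protein, Mgp, stood at 147679 and 143360.0 at day 7 and 149665 and 147872 at day 21 (log2 fold change 0.03 ± 0.13, adjusted p = 0.903), against 224306 and 222564 at day 14. The pyrophosphate transporter gene Ank was at 1426 and 1434 and then 1381 and 1371 (log2 fold change -0.06 ± 0.10, adjusted p = 0.771). Enpp1, which makes pyrophosphate, was at 401 and 369 and then 343 and 335 (log2 fold change -0.18 ± 0.12, adjusted p = 0.369). Gas6, a Gla protein and ligand of Axl, rose from 94793 and 101645 to 166286 and 190024 (log2 fold change 0.86 ± 0.14, adjusted p = 0.00267; without day 7 replicate 1 log2 0.81, adjusted p = 0.0616).

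Of bone matrix and osteocyte genes, 1 of 12 tested members was higher and 2 lower, with a median of -0.33. Osteopontin, Spp1, stood at 6119.5 and 5058 and then 8301 and 5839.9 (log2 fold change 0.32 ± 0.16, adjusted p = 0.219), with overlapping libraries; without day 21 replicate 2 it was called, at log2 0.58, adjusted p = 0.0332. The main bone collagen, Col1a1, was at 64015 and 73189.8 and then 44351 and 63744 (log2 fold change -0.36 ± 0.18, adjusted p = 0.227), and without day 21 replicate 2 it too was called, at log2 -0.63, adjusted p = 0.0452. The osteocyte gene Dmp1 was at 10.9 and 9.81 and then 6.41 and 10.7, not called. Osteomodulin, Omd, rose from 100.2 and 82.9 to 139.9 and 169 (log2 fold change 0.75 ± 0.20, adjusted p = 0.0419). Col5a2, a minor collagen of the same fibrils as Col1a1, fell from 67031 and 68172 to 38644 and 46693 (log2 fold change -0.67 ± 0.17, adjusted p = 0.0296). Neither Omd nor Col5a2 was called without day 7 replicate 1 (log2 0.88, adjusted p = 0.134 and log2 -0.68, adjusted p = 0.176), and the list then had 0 calls, as it did without day 7 replicate 2 or day 21 replicate 1, against 2 higher and 3 lower without day 21 replicate 2.

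**Figure D3:**
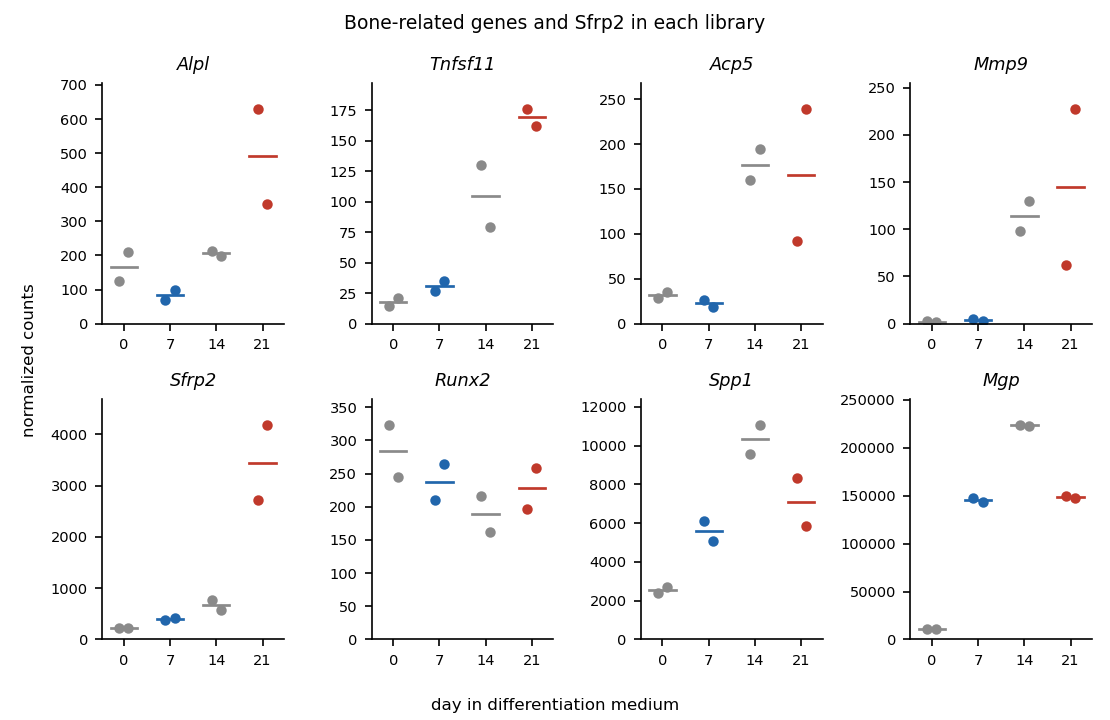
Normalized counts (vertical axes, each from 0) of 7 bone-related genes and Sfrp2 in each library by day in the medium (horizontal axis), coloured as before; bars mark the mean of 2 libraries. Alpl, Tnfsf11, Acp5, Mmp9 and Sfrp2 lie higher at day 21 than at day 7, whereas the day 7 and day 21 points of Runx2 and Spp1 overlap.

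Osteoclast genes were split. Tartrate-resistant acid phosphatase, Acp5, named after its values were seen, stood at 26.4 and 18.7 at day 7 and 91.9 and 239 at day 21 (log2 fold change 2.68 ± 0.35, adjusted p = 0.000741). Mmp9, a gelatinase of osteoclasts and other myeloid cells, stood at 5.47 and 2.67 and then 61.9 and 228 (log2 fold change 4.62 ± 0.53, adjusted p = 0.000268). At day 14, Acp5 was at 159 and 194 and Mmp9 at 98.4 and 129.7. The 2 day 21 libraries differed widely in both genes, with replicate 2 the higher. The collagen-degrading protease Ctsk, named likewise, rose from 1527 and 1706 to 2119 and 2018 (log2 fold change 0.36 ± 0.09, adjusted p = 0.0339). Its call was lost without day 7 replicate 1 (log2 0.28), day 7 replicate 2 (log2 0.44) or day 21 replicate 1 (log2 0.32). It was also lost after the trend with transcript length and GC content was removed (log2 0.125, adjusted p = 0.389). The integrin gene Itgb3 fell from 247 and 230.0 to 86.5 and 84.6 (log2 fold change -1.47 ± 0.14, adjusted p = 6.28e-05). Of the other 5 osteoclast markers, 4 had too few reads to test: Calcr had 1 and 3 reads at days 7 and 21, Dcstamp 0 and 7, Ocstamp 9 and 7, and Oscar 9 and 16. Atp6v0d2, a subunit of the osteoclast proton pump, was not called, at 69.2 and 58.8 and then 64.1 and 71.0. Of the 5 tested members of the list 3 were higher and 1 lower, with 2, 2, 2 and 3 higher with each library left out.

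Macrophage markers were looked at beside these genes, and their part in the result was not tested. Summed over the 20 markers, they went from 13186 and 10667 normalized counts at day 7 to 21752 and 22334 at day 21, most of it Lyz2, while the day 14 libraries held 21940.0 and 41069.8. Of the 20, 3 were called higher (Lyz2, C1qa and C1qc) and 0 lower, 0 of 20 had no read at either day, and Aif1 and Cx3cr1 were near 0. Lyz2, macrophage lysozyme, named after its values were seen, stood at 9187 and 7306 and then 16693 and 15255 (log2 fold change 0.96 ± 0.22, adjusted p = 0.0183; without day 7 replicate 2 log2 0.80, adjusted p = 0.182). The pan-leukocyte gene Ptprc was at 33.7 and 30.3 and then 43.8 and 51.6 and was not called, nor was the receptor Csf1r, at 361 and 323 and then 301 and 329.7. With each library left out 0, 0, 2 and 1 macrophage markers were higher. In bulk RNA more cells of a type and more RNA per cell cannot be told apart.

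In the Wnt list, Sfrp2, a secreted Wnt modulator, stood at 375 and 413 at day 7 and 2712 and 4194 at day 21 (log2 fold change 3.10 ± 0.18, adjusted p = 2.07e-06), with 764 and 581 at day 14. Sfrp1, a relative with far more reads, was not called, at 86119.7 and 86497 and then 84164 and 79082. Of 29 tested Wnt genes 4 rose (13.8%, against 5.46% of all tested genes) and 1 fell (3.45%, near the 3.28% of all tested genes). The gene that fell was Nkd2, an inhibitor inside the pathway, from 1551 and 1615 to 899 and 789.8 (log2 fold change -0.91 ± 0.11, adjusted p = 0.000357). Sfrp2 and Nkd2 were called in every alternative. Each library left out gave 1, 2, 2 and 4 higher Wnt members and 1, 1, 1 and 3 lower.

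In the BMP and activin list 7 of 31 tested members rose and 2 fell. Chrdl1, an extracellular BMP antagonist, rose from 70.1 and 63.3 to 242 and 266 (log2 fold change 1.91 ± 0.31, adjusted p = 0.00255). Id2, a target of BMP signalling that blocks helix-loop-helix factors, rose from 828 and 852 to 1590.4 and 1674 (log2 fold change 0.96 ± 0.09, adjusted p = 6.7e-05). Follistatin, Fst, which traps activin, rose from 1345 and 1393 to 2082 and 2683 (log2 fold change 0.79 ± 0.12, adjusted p = 0.00173). Both libraries of day 21 lay above both of day 7 in Chrdl1, Id2 and Fst. The ligand gene Bmp6 fell from 3245 and 3275 to 1622 and 2198 (log2 fold change -0.79 ± 0.14, adjusted p = 0.00417; without day 7 replicate 1 log2 -0.79, adjusted p = 0.0505, without replicate 2 log2 -0.78, adjusted p = 0.0504). Fst and Bmp6 were named after their values were seen. Higher members numbered 4, 5, 9 and 6 and lower ones 0, 0, 1 and 1 when each library was left out.

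TGF-beta genes fell in 4 of 22 tested members and rose in 0. The largest of the 4 changes was in Itgav, an integrin that activates latent TGF-beta, from 2346 and 2191 to 1583 and 1513 (log2 fold change -0.55 ± 0.12, adjusted p = 0.0185). Smad3, which carries the signal to the nucleus, fell from 1118 and 1130.4 to 746 and 897 (log2 fold change -0.46 ± 0.11, adjusted p = 0.025). With either day 7 library left out, 0 members were called, Itgav being at log2 -0.50, adjusted p = 0.175 and log2 -0.60, adjusted p = 0.104 and Smad3 at log2 -0.47, adjusted p = 0.169 and log2 -0.45, adjusted p = 0.188; without day 21 replicate 1 there were 0 lower and 1 higher, and without day 21 replicate 2 there were 3 lower. Of 14 tested Notch genes 3 rose, Hes1 among them, and 1 fell. The receptor gene Notch4 fell from 523 and 621 to 304 and 347 (log2 fold change -0.81 ± 0.12, adjusted p = 0.00173), in every alternative. Left-out libraries gave 1, 1, 3 and 1 higher and 1, 1, 1 and 5 lower.

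Insulin-like growth factor genes changed in both directions, with 5 of 16 tested members higher and 3 lower. The binding protein Igfbp2 rose from 341 and 393 to 991 and 967 (log2 fold change 1.42 ± 0.15, adjusted p = 0.000144). Igfbp4, a resting fibroblast gene as well, rose from 9428 and 10133 to 20930.0 and 27901 (log2 fold change 1.31 ± 0.13, adjusted p = 9.65e-05). Igfbp6 fell from 14742 and 15139.7 to 8398 and 4421 (log2 fold change -1.29 ± 0.23, adjusted p = 0.00553), with 24692 and 32567 at day 14. Its call was lost without either day 7 library (log2 -1.31, adjusted p = 0.0501 and log2 -1.27, adjusted p = 0.053), while Igfbp2 and Igfbp4 kept theirs in every alternative. Higher members numbered 2, 2, 5 and 4 and lower ones 1, 1, 2 and 3 with single libraries left out. Of 28 other growth factor genes 5 rose and 2 fell (2, 4, 3 and 4 higher, and 0, 0, 1 and 1 lower, with single libraries left out). Pdgfrl, a receptor-like protein, rose from 355 and 405 to 719.9 and 731 (log2 fold change 0.93 ± 0.11, adjusted p = 0.000286). Ntf3, a neurotrophin, went from 1 read at day 7 to 29 at day 21, a ratio of 32.8 (95% counting interval 5.44 to 1341).

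Of 32 collagen and matrix genes tested, 8 were lower at day 21 and 5 higher. Nidogen 2, Nid2, which links laminin to collagen IV in basement membranes, stood at 6777 and 7695 normalized counts at day 7 and 3112 and 2702 at day 21 (log2 fold change -1.32 ± 0.12, adjusted p = 5.16e-05). The laminin chain Lamb1 fell from 8435 and 9631 to 4419.7 and 5544 (log2 fold change -0.86 ± 0.13, adjusted p = 0.00142). Collagen IV chains, named after their values were seen, fell too: Col4a1 went from 100981 and 111254 to 56541 and 75198 (log2 fold change -0.70 ± 0.17, adjusted p = 0.0272). Col4a2 went from 89824 and 100084 to 47874 and 64821 (log2 fold change -0.77 ± 0.17, adjusted p = 0.0159). Nid2 and Lamb1 were called in every alternative, but the collagen IV chains were not called without either day 7 library (Col4a1 log2 -0.77, adjusted p = 0.127 and log2 -0.63, adjusted p = 0.223, Col4a2 log2 -0.84, adjusted p = 0.0856 and log2 -0.69, adjusted p = 0.167) or without day 21 replicate 1 (log2 -0.49, adjusted p = 0.201 and log2 -0.55, adjusted p = 0.132).

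Mfap4, an elastic-fibre protein, rose from 12127 and 12413 to 20355 and 23445 (log2 fold change 0.83 ± 0.11, adjusted p = 0.000861). The abundant collagen Col3a1 was not called, at 141629 and 150616 and then 158763 and 186747, nor was fibronectin, Fn1, at 111374 and 126934 and then 66708 and 105880.2 (log2 fold change -0.50 ± 0.21, adjusted p = 0.154). Without day 21 replicate 2 Fn1 was called, at log2 -0.83, adjusted p = 0.0228. With each library left out 2, 2, 4 and 10 members were lower and 1, 1, 6 and 4 higher.

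Small leucine-rich proteoglycans, which sit on collagen fibrils, rose in 3 of 9 tested members and fell in 1. Lumican, Lum, rose from 2030.4 and 1845 to 3580.2 and 4417 (log2 fold change 1.04 ± 0.16, adjusted p = 0.00186). Fibromodulin, Fmod, fell from 1821 and 1816 to 804 and 1177 (log2 fold change -0.90 ± 0.15, adjusted p = 0.00296). The pair is known to compete for the same region of collagen I, and both calls held in every alternative. Decorin, Dcn, rose from 34090.1 and 33755 to 48589 and 53143 (log2 fold change 0.58 ± 0.14, adjusted p = 0.0264), a call lost without any 1 of the 4 libraries (day 7 replicate 1 log2 0.59, adjusted p = 0.174, replicate 2 log2 0.58, adjusted p = 0.188, day 21 replicate 1 log2 0.65, adjusted p = 0.0698, replicate 2 log2 0.52, adjusted p = 0.0799). The list had 2, 1, 2 and 2 higher members with each library left out. Outside it, Pcolce2, an enhancer of procollagen processing, rose from 1248 and 1322 to 2800.5 and 2855 (log2 fold change 1.14 ± 0.09, adjusted p = 1.43e-05).

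**Figure D4:**
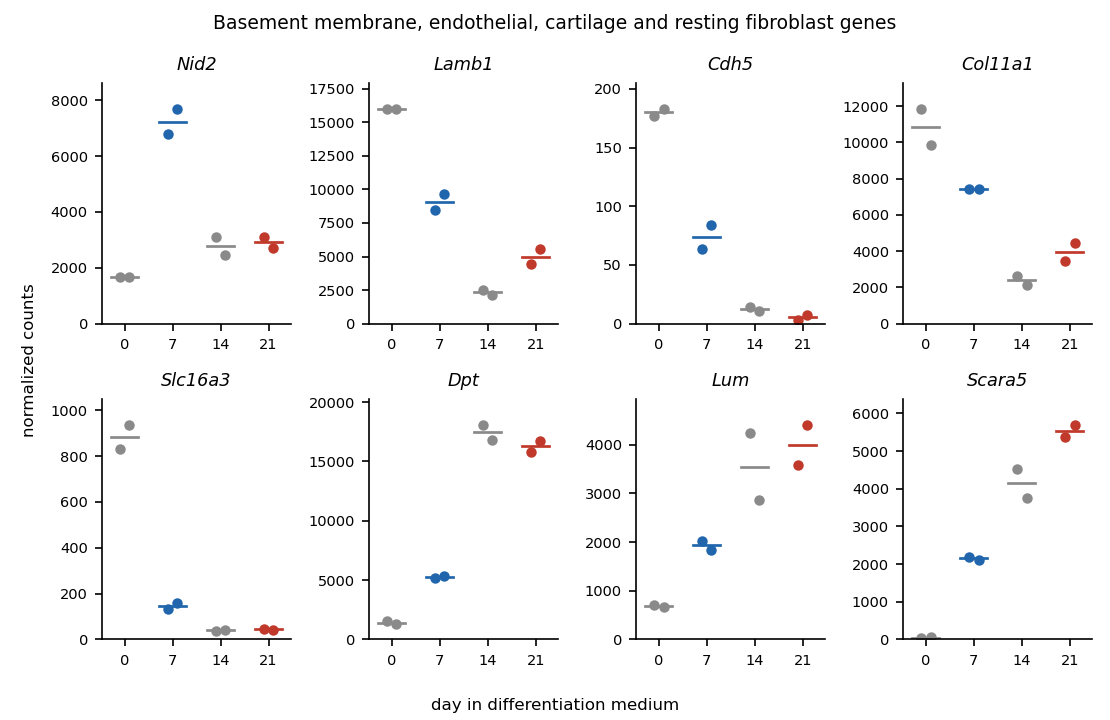
Normalized counts (vertical axes, each from 0) of basement membrane, endothelial, cartilage, transporter and resting fibroblast genes in each library by day in the medium (horizontal axis), coloured as before; bars mark the mean of 2 libraries. Nid2, Lamb1, Cdh5, Col11a1 and Slc16a3 lie lower at day 21 than at day 7, and Dpt, Lum and Scara5 lie higher.

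Matricellular genes, whose products modify cell contact with matrix, rose in 7 of 20 tested members and fell in 3. Comp, cartilage oligomeric matrix protein, rose from 783 and 968 to 2286 and 3495 (log2 fold change 1.70 ± 0.18, adjusted p = 0.000153). Cthrc1, made by activated fibroblasts, rose from 49.2 and 58.8 to 138 and 196 (log2 fold change 1.59 ± 0.17, adjusted p = 0.000184). Cyr61, an early-response CCN protein, rose from 15931 and 17306 to 31845 and 41749 (log2 fold change 1.13 ± 0.13, adjusted p = 0.000296). Periostin, Postn, the classic gene of activated cardiac fibroblasts, fell from 7408 and 6759 to 3420.0 and 4553 (log2 fold change -0.84 ± 0.13, adjusted p = 0.00257; without day 7 replicate 1 log2 -0.78, adjusted p = 0.0505). Wisp1, another CCN gene, named after its values were seen, fell from 238 and 242 to 110.0 and 125 (log2 fold change -1.02 ± 0.15, adjusted p = 0.00125). Cthrc1 and Postn, both known from activated fibroblasts, thus moved in opposite directions. Leaving out each library gave 4, 6, 4 and 6 higher members and 1, 2, 2 and 3 lower.

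Proteases and their inhibitors rose in 7 of 22 tested members and fell in 2, with a median of 0.06. Beside Mmp9, the inhibitor Timp1 rose from 7340.2 and 7829 to 17174 and 14157 (log2 fold change 1.04 ± 0.12, adjusted p = 0.000268). Timp2 and Timp3 were not called, at 58928 and 59887 and then 49415 and 56161 for Timp2, and 33191 and 30665 and then 26255 and 30081 for Timp3. Higher members numbered 3, 4, 5 and 6 and lower ones 0, 0, 1 and 2 with each library left out. The median turned to -0.03 without day 7 replicate 1 and -0.07 without day 21 replicate 2.

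Genes of resting fibroblasts rose in 11 of 24 tested members and fell in 2, with a median of 0.43. Dermatopontin, Dpt, a matrix protein of quiescent fibroblasts, stood at 5209.5 and 5364 normalized counts at day 7 and 15786 and 16747 at day 21 (log2 fold change 1.62 ± 0.10, adjusted p = 2.1e-06). Scara5, a ferritin receptor, rose from 2194 and 2105 to 5373 and 5707 (log2 fold change 1.37 ± 0.22, adjusted p = 0.00255). The progenitor marker Ly6a, named after its values were seen, rose from 5544 and 5029.9 to 10995 and 9189 (log2 fold change 0.93 ± 0.15, adjusted p = 0.00332; without day 7 replicate 2 log2 0.86, adjusted p = 0.0523). One of the 2 that fell was Cd248, endosialin, named likewise, from 1667 and 1746 to 681 and 939 (log2 fold change -1.09 ± 0.13, adjusted p = 0.00033). In turn, the left-out libraries gave 5, 4, 9 and 9 higher members and 1, 1, 3 and 2 lower.

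Contractile genes of myofibroblasts did not move as a block: 1 of 22 tested members rose and 4 fell. Acta2, smooth muscle actin, stood at 7615 and 7680.4 and then 7894 and 8466 (log2 fold change 0.10 ± 0.11, adjusted p = 0.623). Its partner Tagln rose from 2338 and 2332 to 4760.4 and 4511 (log2 fold change 0.99 ± 0.11, adjusted p = 0.000211), against 20038 and 20653 at day 0. Vinculin, Vcl, which anchors actin at adhesions, fell from 7127 and 6805 to 3835 and 4867 (log2 fold change -0.69 ± 0.14, adjusted p = 0.00988). That call was lost without either day 7 library (log2 -0.66, adjusted p = 0.105 and log2 -0.72, adjusted p = 0.0755) or without day 21 replicate 1 (log2 -0.52, adjusted p = 0.097), and in each of those analyses 0 members of the list fell, against 6 without day 21 replicate 2.

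Endothelial markers fell in 5 of 11 tested members and rose in 0, with a median of -0.93. VE-cadherin, Cdh5, the junction protein that defines endothelium, stood at 63.8 and 83.8 at day 7 and 3.20 and 7.78 at day 21 (log2 fold change -3.61 ± 0.34, adjusted p = 6.46e-05), against 14.6 and 10.5 at day 14 and 177 and 183 at day 0. Tie1, an endothelial receptor named after its values were seen, fell from 25.5 and 27.6 to 4.27 and 3.89 (log2 fold change -2.44 ± 0.32, adjusted p = 0.000737). Pecam1 fell from 55.6 and 60.6 to 16.0 and 30.2 (log2 fold change -1.36 ± 0.36, adjusted p = 0.0388), a call lost without either day 7 library (log2 -1.42, adjusted p = 0.174 and log2 -1.30, adjusted p = 0.221) or without day 21 replicate 1 (log2 -0.92, adjusted p = 0.283). Flt1 and Tek, the most abundant of the list, were not called, at 288 and 304 and then 281 and 244 for Flt1, and 353 and 326 and then 239 and 345 for Tek. Summed, the 12 markers held 928 and 959 normalized counts at day 7 and 608 and 716 at day 21, and Kdr had 20 and then 4 reads. Whether these levels bear on the lower Nid2, Lamb1 and collagen IV values was not tested. With single libraries left out 3, 2, 3 and 5 markers were lower. Of 7 tested mural markers 1 was higher and 2 were lower, and of 7 mesothelial markers 0 were higher and 1 was lower. In the same order, mural markers had 0, 0, 0 and 1 higher and 1, 1, 1 and 2 lower, and mesothelial markers 0, 0, 0 and 1 higher and 0, 1, 3 and 1 lower.

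Of 11 tested cartilage genes 2 fell and 0 rose. Sox9, the regulator of cartilage fate, fell from 3774 and 3710.5 to 2151 and 2700.1 (log2 fold change -0.63 ± 0.11, adjusted p = 0.00513), a call lost without either day 7 library (log2 -0.62, adjusted p = 0.0712 and log2 -0.65, adjusted p = 0.0586). Its target Col11a1 fell from 7406 and 7434 to 3469 and 4479 (log2 fold change -0.91 ± 0.14, adjusted p = 0.00196) in every alternative. Col2a1, the main cartilage collagen, was at 38.3 and 38.3 and then 8.54 and 29.2, not called. Without either day 7 library 1 member was lower, and 3 were lower without either day 21 library.

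Fat cell genes rose in 5 of 19 tested members and fell in 0. Adipsin, Cfd, a serine protease of fat cells, had 0 reads at day 7 and 113 at day 21, at least 42.6-fold higher with a floor of 3 reads over the group (log2 fold change 5.79 ± 0.52, adjusted p = 5.14e-05). Adiponectin, Adipoq, went from 4 to 48 reads (log2 fold change 3.07 ± 0.60, adjusted p = 0.00814), a call lost without day 7 replicate 1 (log2 2.60, adjusted p = 0.0887) or day 21 replicate 2 (log2 2.38, adjusted p = 0.0566). Both had been detected at day 14, at 61.0 and 50.3 normalized counts for Cfd and 20.0 and 21.0 for Adipoq. The fat cell regulator Pparg was not called, at 67.4 and 51.7 and then 89.7 and 109.9 (log2 fold change 0.74 ± 0.26, adjusted p = 0.0983). Cebpb, which acts early in fat and in inflammation, rose from 2137 and 2514 to 4296 and 4941 (log2 fold change 0.99 ± 0.12, adjusted p = 0.00033). Leaving out each library gave 2, 3, 5 and 2 higher members.

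Glucocorticoid response genes rose in 7 of 23 tested members and fell in 0. Those that rose included Dusp1, which is also an early gene, and the kinase gene Sgk1, from 6353 and 6334 to 11358 and 9592 (log2 fold change 0.72 ± 0.10, adjusted p = 0.00107). The most specific reporter of the list, Fkbp5, was not called, at 5339 and 5559 and then 4755 and 5036 (log2 fold change -0.15 ± 0.10, adjusted p = 0.355). Left-out libraries gave 2, 3, 5 and 8 higher members. Of circadian clock genes 2 of 18 rose and 1 fell (1, 2, 2 and 2 higher and 0, 0, 0 and 1 lower with each library left out), led by Bhlhe40, a repressor of the clock, from 972 and 1094 to 2632 and 2579 (log2 fold change 1.34 ± 0.10, adjusted p = 9e-06).

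Of immune effectors, complement genes rose in 6 of 22 tested members and fell in 0, but 2 of those, C1qa and C1qc, are also macrophage markers. Cfd, given above as a fat cell gene, is counted here as well and had the largest rise of the list. C7, a component of the membrane attack complex, rose from 598 and 738 to 2843 and 2894 (log2 fold change 2.11 ± 0.30, adjusted p = 0.0013), in every alternative. C3, by far the most abundant of the list at 122157 and 131318, was not called, with 87316 and 118861 at day 21. Without any 1 of the 4 libraries the list had 2 or 3 higher members. Acute-phase genes rose in 4 of 13 and fell in 0. Among them haptoglobin, Hp, rose from 20348 and 23194 to 49728 and 45386 (log2 fold change 1.13 ± 0.24, adjusted p = 0.0143). Serpina3n, with the most reads, was not called, at 404925 and 451928 and then 520981 and 492721. The Hp call was lost without day 7 replicate 1 (log2 1.03, adjusted p = 0.122), day 7 replicate 2 (log2 1.22, adjusted p = 0.07) or day 21 replicate 1 (log2 1.06, adjusted p = 0.11), and the list had 0, 2, 2 and 4 higher members with each library left out. Interferon response genes were near the background share, with 2 of 33 higher (1, 0, 0 and 1 with each library left out).

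Cell cycle genes were at low levels at both times. Mki67, the standard marker of cycling cells, stood at 53.7 and 51.7 at day 7 and 31.0 and 36.0 at day 21 (log2 fold change -0.64 ± 0.20, adjusted p = 0.0729), against 1598 and 1404 at day 0. Of 25 mitosis genes 3 were lower and 0 higher, and of 26 DNA replication genes 2 were lower and 0 higher. Cdc20, which triggers anaphase, fell from 73.8 and 93.6 to 48.1 and 41.8 (log2 fold change -0.88 ± 0.17, adjusted p = 0.00734; without day 7 replicate 2 log2 -0.71, adjusted p = 0.123). Lower members with each library left out numbered 1, 0, 2 and 2 for mitosis and 0, 0, 1 and 1 for replication. Among cell cycle inhibitors 5 of 22 rose and 2 fell (3, 3, 3 and 4 higher, and 0, 0, 0 and 0 lower, with single libraries left out). The senescence gene Cdkn2a rose from 986 and 1126 to 2184 and 2211 (log2 fold change 1.06 ± 0.13, adjusted p = 0.000386), with 2239 and 3019 at day 14. Gadd45b, a stress-response gene, rose from 450.0 and 468 to 925 and 1162 (log2 fold change 1.17 ± 0.15, adjusted p = 0.000571).

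Genes of the unfolded protein and integrated stress responses, which restore protein folding and amino acid supply, rose in 14 of 28 tested members and fell in 0, with a median of 0.36. The chaperone gene Hspa5 rose from 14560.1 and 13776 to 25396 and 24155 (log2 fold change 0.81 ± 0.10, adjusted p = 0.000669). Manf, a secreted stress protein, rose from 2406 and 2353 to 4127 and 3486 (log2 fold change 0.67 ± 0.10, adjusted p = 0.00184). Atf3, given above, belongs to this list as well. With each library left out in turn 4, 3, 8 and 12 members were higher.

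Cytosolic ribosomal protein genes rose in 24 of 35 tested members and fell in 0, with a median of 0.49. The largest rise was in Rps18, a small-subunit protein, from 1768 and 1819 to 3351 and 2384 (log2 fold change 0.66 ± 0.15, adjusted p = 0.0189). Rplp0, of the ribosomal stalk, was not called, at 14567 and 15149 and then 22229.8 and 18172 (log2 fold change 0.44 ± 0.13, adjusted p = 0.0526). In Rps18 the 2 day 21 libraries differed by more than the lower of them differed from day 7. With 1 library left out, 0 members were called in 3 of the 4 analyses, Rps18 being at log2 0.64, adjusted p = 0.146 and log2 0.68, adjusted p = 0.121 without the day 7 libraries and log2 0.41, adjusted p = 0.153 without day 21 replicate 1, but 32 were called without day 21 replicate 2. Ribosomal messages are short, and after the trend with transcript length and GC content was removed, 6 were higher with a median of 0.24. Under median centring 14 were higher. Reads of ribosomal genes can also be shared with their pseudogenes.

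Of 33 respiratory chain genes 3 rose and 0 fell, with 0, 0, 0 and 10 higher when each library was left out and 0 under median centring. Glycolysis and hypoxia genes fell in 5 of 23 tested members and rose in 1. The largest fall was in the lactate exporter Slc16a3, which stood at 133 and 159.6 at day 7 and 45.9 and 42.8 at day 21 (log2 fold change -1.69 ± 0.16, adjusted p = 6.87e-05), against 833 and 937 at day 0. That gene was called in every alternative, and the list had 1, 1, 1 and 4 lower members with each library left out. Cholesterol synthesis genes rose in 6 of 23 and fell in 0, but the counts with each library left out were 0, 1, 1 and 13. Of 20 fatty acid and lipoprotein genes 3 rose and 3 fell (0, 0, 1 and 2 higher, and 0, 0, 0 and 1 lower, with single libraries left out).

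Lysosome genes rose in 10 of 30 tested members and fell in 0, led by the macrophage-rich protease gene Ctss, from 557 and 414 to 1042 and 1147 (log2 fold change 1.19 ± 0.21, adjusted p = 0.00439; without day 7 replicate 2 log2 0.97, adjusted p = 0.0734). Higher members numbered 2, 2, 5 and 9 in turn. Of 32 antioxidant and detoxification genes 9 were higher and 0 lower. With each library left out 2, 2, 4 and 7 were higher, and 3 were lower without day 21 replicate 1. Among them the oxysterol hydroxylase gene Cyp7b1 rose from 365 and 389 to 791 and 876 (log2 fold change 1.14 ± 0.12, adjusted p = 0.000144). That call held in every alternative.

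The largest changes outside the lists belonged to genes of varied function. Slc38a5, a glutamine transporter, rose from 18.2 and 22.3 to 320.4 and 336 (log2 fold change 3.96 ± 0.44, adjusted p = 0.000191) and was at 272 and 269 at day 14. Wfdc18, a small secreted protein, had the largest fall of the 12 genes named for their fall, from 45.5 and 60.6 to 2.14 and 4.86 (log2 fold change -3.64 ± 0.33, adjusted p = 5.16e-05). Ndufa4l2, a hypoxia-induced mitochondrial protein, fell from 273 and 316 to 66.2 and 92.4 (log2 fold change -1.89 ± 0.18, adjusted p = 5.4e-05). Nestin, Nes, an intermediate filament protein of immature cells, fell from 115 and 136 to 38.5 and 44.7 (log2 fold change -1.57 ± 0.18, adjusted p = 0.000268). For Wfdc18 (22.8 and 17.5), Ndufa4l2 (102 and 115) and Nes (51.0 and 72.5) the day 14 levels lay between those of days 7 and 21. The imprinted regulator Plagl1 fell from 803 and 837 to 395 and 270.4 (log2 fold change -1.32 ± 0.20, adjusted p = 0.00187), with 55.7 and 51.0 at day 0. The imprinted long noncoding RNA Meg3 fell from 82.9 and 71.3 to 42.7 and 22.4 (log2 fold change -1.28 ± 0.27, adjusted p = 0.0133), although it was at 282 and 323 at day 14; the call was lost without day 7 replicate 1 (log2 -1.18, adjusted p = 0.12), day 7 replicate 2 (log2 -1.39, adjusted p = 0.0673) or day 21 replicate 2 (log2 -0.83, adjusted p = 0.0535). Of 13 long noncoding RNAs 4 rose and 1 fell, with a median of 0.262, and all these calls were lost without either day 7 library. After the trend with transcript length and GC content was removed, 1 was higher and 1 lower, with a median of -0.15. Of 15 imprinted genes 1 rose and 2 fell, and no rise was called without either day 7 library or without day 21 replicate 1. Of matrix crosslinking enzymes 2 of 18 rose and 1 fell, with 1, 1, 2 and 1 higher and 0, 0, 0 and 0 lower when single libraries were left out. Of cardiac origin transcription factors 1 of 13 rose and 0 fell, but the higher counts without single libraries were 0, 0, 0 and 0. Of FoxO and fasting-type genes 3 of 17 rose, Trib1 among them, and 0 fell, with fewer called higher without any 1 of the 4 libraries.

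**Figure D5:**
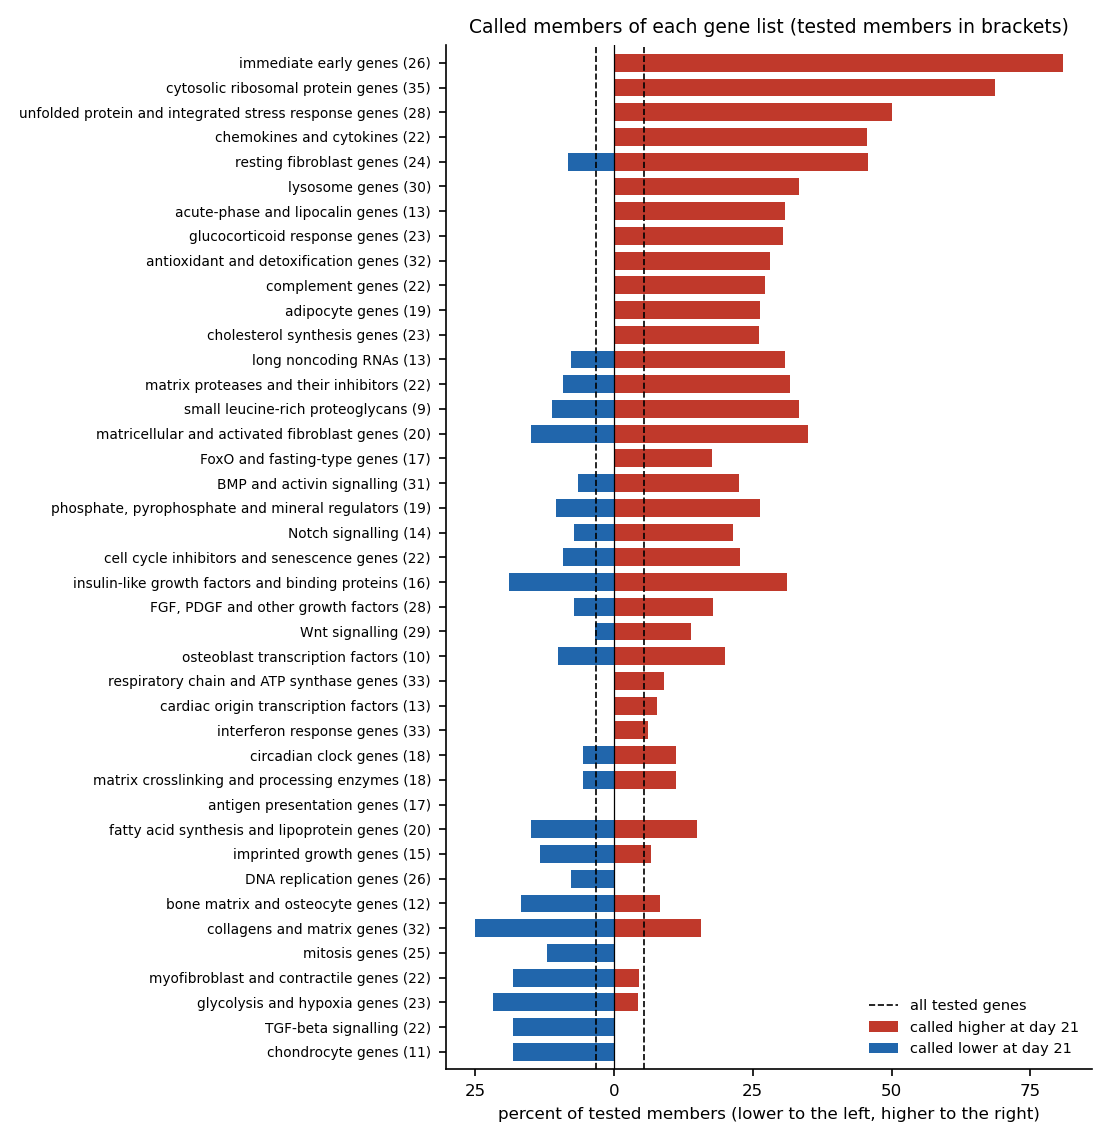
Share of tested members called higher (red, right) or lower (blue, left) at day 21 for each of the 41 gene lists, in percent of tested members, with the number tested in brackets; dashed lines mark the shares over all tested genes, 5.46% higher and 3.28% lower. Immediate early genes have the largest share, 21 of 26 higher.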

How the data were processed

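RNA from wild-type mouse cardiac fibroblasts was extracted with a Qiagen RNeasy Plus Mini Kit and made into Illumina libraries, per the labels' protocols. The deposited table holds 1 signal value per gene and library, namely reads divided by 1 size factor per library, which the authors computed; it gives 24015 genes, 5936 of them without a read in any of the 8 libraries. Tools listed in the submitters' processing notes are TopHat2 2.0.11, HTSeq 0.6.1 and DESeq, with the build mm9. For the gene annotation and strand setting nothing is stated in the sources used here. Without strand, reads of overlapping and antisense genes cannot be told apart, and paralogs may share reads. Every value was a whole multiple of its library's smallest step within 0.01 reads, so whole reads were recovered.

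The test was limma 3.58.1 (R 4.3.3) with a mean-variance trend on log2(value + 1), fitted to all 8 libraries with 1 mean per day (4 residual degrees of freedom), for genes at 10 or more in at least 2 libraries. P-values were adjusted by Benjamini-Hochberg over 13527 genes, with 0.05 as threshold. The scripts were tested on simulated data. edgeR 4.0.16 and DESeq2 1.42.0 on the whole reads were among 16 alternatives, with other scalings, pseudocounts, filters, left-out libraries, a replicate block and removal of the trend with transcript length and GC content (98.4% of the table's genes matched GENCODE M21 on GRCm38). Promoter sequences are from RefSeq. Because the files use mm9, no expression value was tied to a GRCm38 coordinate. The members and lists were chosen with earlier results of these data known, and a list is described by its counts and median. Genes named were the 12 that rose most and the 12 that fell most, if called, with a group mean of 50 or above and no overlap, up to 4 called and 2 uncalled members of each list, and a fixed set of bone, fibroblast, fat and cell cycle genes. Tnnt2, Ptprc, Csf1r, Flt1, Tek and Col2a1 were quoted after their values were seen. Floors of 3 reads and 95% intervals cover counting error only.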

Additional observations from a re-analysis of the deposited data

How the results depend on the processing

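Between 262 and 1443 genes were called when 1 library was left out, against 1182 with all of them, with 194 to 805 higher (738 with all) and 66 to 638 lower (444 with all). All genes called without either day 7 library were also called with every library. Without day 21 replicate 1 some were not, and without day 21 replicate 2 a still larger share of the calls was not shared, in both directions. A fit that also took in genes with any value above 0 in 2 libraries called 722 genes, 466 higher and 256 lower. The other alternatives gave between 949 and 1636 calls, among them 1361 with edgeR, 1193 with DESeq2, 1148 under TMM scaling, 1149 under median centring, 1212 after removing the trend with transcript length and GC content, and 1636 from days 7 and 21 alone. Of the 170 called genes followed one by one, 72 were called in all 16 alternatives. In these 170 genes 0 changes of direction were seen, but most alternatives could not have produced any. Both libraries of 1 day lay above both of the other in every called gene, so leaving a library out could not reverse it. Filters, the replicate block and the fit of days 7 and 21 alone kept the same change per gene. Uncalled genes with changes near 0 did change sign in some alternatives. The median change of matrix proteases, 0.0646, became -0.0695 without day 21 replicate 2 and 0.0938 without day 21 replicate 1, and the cause was not tested. Other list medians changed sign as well. Without day 21 replicate 2, osteoblast transcription factors went from 0.0728 to -0.00161 and interferon response genes from 0.177 to -0.00941. Long noncoding RNAs went from 0.262 to -0.15 after the trend with transcript length and GC content was removed. Replicate numbers did not pair the libraries: deviations from the day means correlated at -0.04 to 0.07 between same-numbered libraries of different days. A fit with the replicate number as a block called 949 genes, 589 higher and 360 lower, and the block together with the length and GC correction called 988. With 2 libraries a day, small changes and genes with few reads could not be resolved.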
